A study of Mus musculus with 8 samples.

Results

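GABA-A receptor subunit mRNA was followed in 7 genes (Gabra2, Gabra3, Gabra4, Gabra5, Gabrb1, Gabrb2 and Gabrd) in mouse cortex. The 7 were taken by gene symbol from a count table of 22869 symbols, and each symbol had 1 row in the table. The bexarotene group held 4 libraries from cortex of APP/PS1 mice given bexarotene, a drug that activates retinoid X receptors, and the vehicle group held 4 from mice of the same genotype given glycerol at 0.2 mg/kg. All mice were on the C57BL/6 strain and all carried the APP/PS1 transgenes, which drive amyloid plaque formation, so every value here comes from a plaque-forming model. Per its title, the study looked for transcripts, Trem2 among them, that respond to bexarotene, and a group without the transgenes was not analysed here. Bexarotene dose and duration, and the age and sex of the mice, were not found in the labels. Whether a library holds RNA of 1 mouse or of more is unstated, and the p-values therefore reflect the spread among these 8 libraries and nothing wider.

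GABA-A receptors are pentameric chloride channels that open when GABA, the main inhibitory transmitter of the cortex, binds between an alpha and a beta subunit. The alpha subunit largely sets where the receptor sits and which drugs act on it, the beta subunit is needed to bind GABA and to reach the surface, and the remaining place is usually taken by a gamma or by the delta subunit. Receptors with gamma subunits gather at synapses and carry brief inhibitory currents, while receptors with delta, or with the alpha subunit that Gabra5 encodes, lie largely outside synapses and carry a steady inhibitory current.

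Some properties of the libraries bear on the values that follow. Total counts ran from 60106192 to 76542067 in the bexarotene libraries and from 42413825 to 60955403 in the vehicle libraries, and the members had between 848 counts (Gabrb1) and 15252 counts (Gabrb2) in a library. On the first principal component, with 36.5% of the variance, replicates 1 and 3 of both groups lay apart from replicates 2 and 4. Xist, the RNA of the inactive X chromosome, was at 84.7 to 218 CPM (CPM are counts scaled to a common library size over the tested rows, with TMM factors) and the summed Y-linked genes at 9.81 to 88.5 CPM, so that each of the 4 bexarotene libraries held both. Each vehicle library held 1 of them, with Xist at 248 and 307 CPM in replicates 1 and 3 and Y-linked genes at 134 and 141 CPM in replicates 2 and 4. Whether this makeup has a part in the subunit values was not tested, and each member's difference within replicates 1 and 3 and within replicates 2 and 4 (of mean log2 CPM) is given beside the pooled one.

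No subunit gene was called as different between bexarotene and vehicle. By the quasi-likelihood test of edgeR, 0 of the 7 had an adjusted p below 0.05, where 0.0047% of the 21285 rows tested were called. DESeq2, limma voom and edgeR's exact test also called 0 of the 7. At an unadjusted p below 0.05 the count was 1 of 7, Gabra4, against 8.77% of the 16069 genes tested. The bexarotene libraries lay wholly above the vehicle libraries in 0 of the 7, against 3.61% of genes, and wholly below them in 0 of the 7, against 2.16% of genes. The log2 fold change (bexarotene minus vehicle) was negative in 6 members and positive in 1, with a median of -0.092, while the median over all genes tested was 0.0009.

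**Figure D1:**
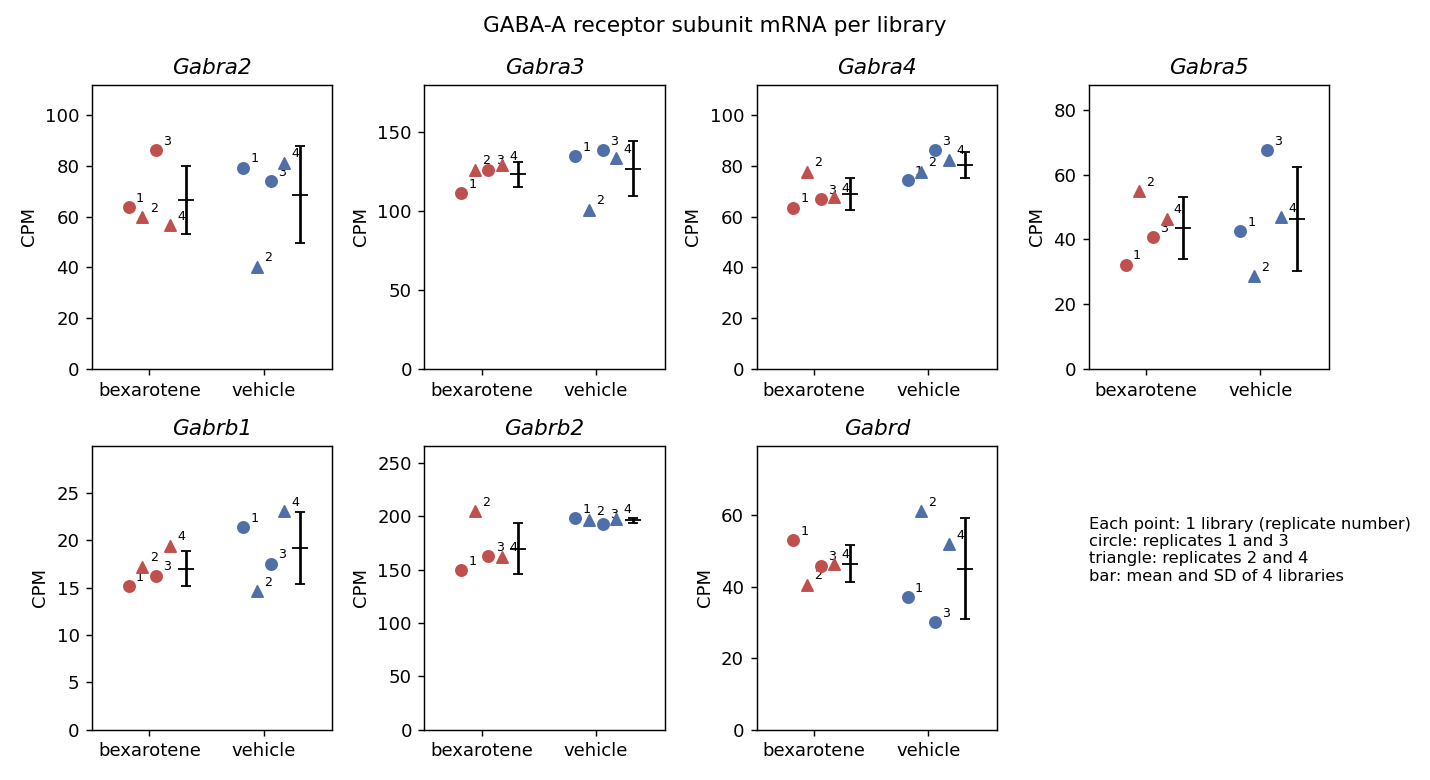
CPM of each subunit gene (y axis, from 0, scaled per gene) in the 4 bexarotene libraries (red, left) and the 4 vehicle libraries (blue, right), with replicate numbers, circles for replicates 1 and 3, triangles for replicates 2 and 4, and the mean and SD of 4 libraries as bars. The groups overlap in every panel, and in Gabrb2 the vehicle libraries sit between 193 and 199 CPM while bexarotene replicates 1, 3 and 4 lie below them and replicate 2 above.

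Gabra4 encodes an alpha subunit that does not bind classical benzodiazepines and that pairs with delta in forebrain receptors outside synapses. Gabra4 mRNA stood at 63.5, 77.8, 67.0 and 67.6 CPM in the bexarotene libraries (replicates 1 to 4) against 74.5, 77.8, 86.1 and 82.5 CPM in the vehicle libraries. Bexarotene replicates 1, 3 and 4 lay below every vehicle library, and replicate 2 lay among them. The means were 69.0 ± 6.13 CPM with bexarotene and 80.2 ± 5.12 CPM with vehicle (SD, n = 4 each), a fold of 0.860. On the log2 scale the difference was -0.22 ± 0.086 (SE); the quasi-likelihood test of edgeR gave adjusted p = 0.549 and unadjusted p = 0.0290. Permuting the 8 values between the groups (exact, two-sided) gave p = 0.0571, where the smallest p that 4 against 4 allows is 0.0286. As a difference of mean log2 CPM, replicates 1 and 3 alone gave -0.30, and replicates 2 and 4 alone gave -0.14. The counted Gabra4 transcript overlaps Gabrb1 exon sequence by 46 nt on the opposite strand, and the strand setting of the counting is unknown. In bulk tissue, fewer cells of a type and less RNA per cell cannot be told apart.

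Gabrb2 encodes the beta subunit of the most common synaptic receptor of the adult brain. Gabrb2 mRNA measured 150, 205, 163 and 162 CPM in the bexarotene libraries and 199, 197, 193 and 198 CPM in the vehicle libraries, replicates 1 to 4 in each case. Bexarotene replicates 1, 3 and 4 were below all vehicle libraries and replicate 2 was above all of them. The means were 170 ± 24.1 CPM with bexarotene and 197 ± 2.35 CPM with vehicle (SD, n = 4 each), a log2 fold change of -0.21 ± 0.099 (adjusted p = 0.594, edgeR quasi-likelihood). The exact permutation test gave p = 0.143. The coefficient of variation was 14.2% among bexarotene libraries and 1.20% among vehicle libraries, where counting error alone gives 0.81% to 1.09% at these counts. Leaving out bexarotene replicate 2, the library above all vehicle libraries, necessarily lowers the bexarotene mean. Without it the log2 fold change was -0.31 ± 0.076 (adjusted p = 0.309, edgeR quasi-likelihood). This was the largest difference when 1 library at a time was left out. The smallest was -0.15 ± 0.10, without bexarotene replicate 1. Replicates 1 and 3 alone gave -0.33, and replicates 2 and 4 alone gave -0.11.

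Gabra4 and Gabrb2 had the most similar course over the 8 libraries of the 21 pairs of members. After each gene's log2 CPM was centred on its mean, the root mean square difference between them was 0.078 and Pearson's r was 0.878, given as a description over 8 libraries that share their depth and their scaling. Both were lowest in bexarotene replicate 1. Their course differed from that of Gabrb1, which lies beside Gabra4 on chromosome 5, with a root mean square difference of 0.22 between Gabra4 and Gabrb1. The counted transcripts of Gabra4 and Gabrb2 are close in length (4108 and 3989 nt) and in GC content (42.2% and 44.0%). Whether length or GC content has a part in their similar course was not tested.

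The windows of 300 bases around the annotated start sites of these 3 genes are shown because Gabra4 and Gabrb2 varied together and because Gabra4 and the upstream start of Gabrb1 lie on opposite strands of one stretch of chromosome 5. They are RefSeq sequences of build GRCm38.p6, not of the mm9 build named for the counts, 5′ to 3′ on the gene's strand: Gabra4 at chr5:71658259-71658558 on the minus strand, Gabrb1 at chr5:71657671-71657970 on the plus strand, and Gabrb2 at chr11:42420190-42420489 on the plus strand. Gabrb1 has 2 such windows and Gabrb2 has 3, and the first of each is shown. The window of Gabra4 lies around the start of its counted transcript. The counted Gabrb1 transcript starts instead in the other Gabrb1 window, at chr5:71699682-71699981, which has 9 CpG and neither motif. For Gabrb2 the nearest annotated start with a window, the one shown, is 683 nt from the start of the counted transcript, and for Gabra3 that distance is 621 nt. Capitals mark the GC box GGGCGG or its complement CCGCCC and the TATA box TATAAA.
Gabra4: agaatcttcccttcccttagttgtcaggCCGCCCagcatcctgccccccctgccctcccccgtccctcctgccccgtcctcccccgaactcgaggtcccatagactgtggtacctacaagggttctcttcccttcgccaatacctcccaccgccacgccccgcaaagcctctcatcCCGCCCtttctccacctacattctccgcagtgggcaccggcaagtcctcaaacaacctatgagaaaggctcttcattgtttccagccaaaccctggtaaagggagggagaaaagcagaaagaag
Gabrb1: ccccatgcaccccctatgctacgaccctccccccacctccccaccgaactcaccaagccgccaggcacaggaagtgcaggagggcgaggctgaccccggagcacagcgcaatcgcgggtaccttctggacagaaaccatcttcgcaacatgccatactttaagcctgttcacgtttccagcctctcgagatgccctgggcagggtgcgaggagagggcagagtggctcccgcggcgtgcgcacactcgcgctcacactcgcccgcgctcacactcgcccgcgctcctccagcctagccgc
Gabrb2: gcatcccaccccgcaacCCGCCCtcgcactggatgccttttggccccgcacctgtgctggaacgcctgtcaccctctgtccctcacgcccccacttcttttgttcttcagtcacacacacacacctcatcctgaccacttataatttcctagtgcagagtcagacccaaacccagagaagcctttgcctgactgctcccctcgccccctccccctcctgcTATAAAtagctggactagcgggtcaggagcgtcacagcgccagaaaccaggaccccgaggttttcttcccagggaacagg

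Windows were found for 6 of the 7 genes (all but Gabrd), 10 windows in all, some of them overlapping. The Gabra4 window has 2 GC boxes, 12 CpG dinucleotides and 58.7% GC. The Gabrb2 window has 1 GC box, 1 TATA box, 11 CpG and 59.0% GC, and the Gabrb1 window shown has neither motif, 25 CpG and 66.0% GC. Of 32851 mouse windows of this length, 35.7% hold a GC box and 13.6% a TATA box on either strand, and the medians are 52.7% GC and 7 CpG. The Gabra2 window has 25 CpG and 2 GC boxes, while the 2 Gabra3 windows, which overlap, have 0 CpG and share 1 TATA box, on the other strand. The letters of the nuclear receptor half-site AGGTCA, searched on both strands because retinoid X receptor dimers bind repeats of it, were in 0 of the 10 windows and in 16.3% of all windows. Such matches describe the letters of these windows and not binding.

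Gabra2 encodes an alpha subunit found at synapses on the axon initial segment of pyramidal cells. Gabra2 mRNA measured 63.7, 59.9, 86.1 and 56.6 CPM in the bexarotene libraries (replicates 1 to 4) against 79.4, 40.3, 74.1 and 81.3 CPM in the vehicle libraries. Vehicle replicate 2 was the lowest of the 8 libraries and bexarotene replicate 3 the highest. Its log2 difference, -0.047 ± 0.22, had a 95% interval from -0.55 to 0.46 (adjusted p = 0.981, edgeR quasi-likelihood). Replicates 1 and 3 alone gave -0.050, and replicates 2 and 4 alone 0.024.

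Gabra3 encodes an alpha subunit of synaptic receptors that is prominent early in cortical development, and its gene is on the X chromosome. Its bexarotene libraries held 111, 126, 126 and 129 CPM, against 135, 101, 138 and 134 CPM in the vehicle libraries. The groups overlapped, with 3 vehicle libraries above every bexarotene library and vehicle replicate 2 below all of them. The log2 difference of -0.043 ± 0.11 had an interval from -0.29 to 0.20 (adjusted p = 0.949, edgeR quasi-likelihood). Within replicates 1 and 3 it was -0.20, and within replicates 2 and 4 it was 0.14.

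Gabra5 encodes the alpha subunit of receptors that carry steady inhibition in pyramidal cells, above all in the hippocampus. Its levels were 32.2, 54.9, 40.6 and 46.3 CPM in the bexarotene libraries (replicates 1 to 4) against 42.5, 28.6, 67.5 and 46.9 CPM in the vehicle libraries. All 4 bexarotene values lay between the lowest and the highest vehicle value, which differed by 2.36-fold. A log2 difference of -0.092 ± 0.26 had an interval from -0.67 to 0.49 (adjusted p = 0.957, edgeR quasi-likelihood). The long RNA gene Gm9962 overlaps an exon of Gabra5 by 148 nt on the other strand, and the strand setting of the counting is unknown, so their reads cannot be told apart there.

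Gabrb1 encodes another beta subunit. It had the fewest counts, with 15.2, 17.2, 16.2 and 19.4 CPM in the bexarotene libraries against 21.3, 14.6, 17.5 and 23.1 CPM in the vehicle libraries. The bexarotene values lay within the vehicle range. The log2 fold change of -0.17 ± 0.15 had an interval from -0.50 to 0.16 (adjusted p = 0.801, edgeR quasi-likelihood). The difference was -0.30 among replicates 1 and 3 and -0.0063 among replicates 2 and 4. The counted Gabrb1 transcript has no exon overlap on the opposite strand. The overlap of 46 nt between Gabra4 and Gabrb1 exons involves another Gabrb1 transcript.

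Gabrd encodes delta, the subunit that marks neurosteroid-sensitive receptors outside synapses. Gabrd mRNA measured 53.1, 40.5, 45.9 and 46.4 CPM in the bexarotene libraries (replicates 1 to 4) against 37.1, 61.2, 30.1 and 51.9 CPM in the vehicle libraries. Within the vehicle group the 2 libraries with Xist were the low ones and the 2 with Y-linked RNA the high ones. Bexarotene replicates 2 to 4 lay between these, and replicate 1 lay between the 2 high ones. Among the bexarotene libraries the order was not the same. Replicate 2, lowest for Gabrd, had the least Xist (84.7 CPM) and the most Y-linked RNA (88.5 CPM). Replicate 1, highest for Gabrd, had Xist at 180 CPM and Y-linked genes at 17.1 CPM. Replicate 4, with the most Xist (218 CPM) and the least Y-linked RNA (9.81 CPM), lay between them for Gabrd. The log2 fold change, 0.044 ± 0.20, had an interval from -0.41 to 0.50 (adjusted p = 0.980, edgeR quasi-likelihood).

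The difference between bexarotene and vehicle had opposite signs in the 2 sets of replicates for Gabra2, Gabra3, Gabra5 and Gabrd. How large a share of all genes does so was not determined. For Gabra2 both values were small, at -0.050 and 0.024, and the interaction term described below was -0.029 ± 0.44. The sets lay furthest apart for Gabrd and Gabra5. Gabrd was higher by 0.56 on the log2 scale within replicates 1 and 3, and had a difference of -0.38 within replicates 2 and 4. Gabra5 had a difference of -0.57 within replicates 1 and 3 and of 0.46 within replicates 2 and 4. The interaction term (replicates 2 and 4 minus replicates 1 and 3) was -0.94 ± 0.20 for Gabrd, with an unadjusted p of 8.12e-04 (adjusted p = 0.137, edgeR quasi-likelihood). For Gabra5 it was 1.02 ± 0.41, with an adjusted p of 0.344 in the same edgeR test, and for Gabra3 it was 0.32 ± 0.18, with an adjusted p of 0.460. These sets were seen on the first principal component of the same data and are not groups of the study. The term was added afterwards, so its p-values are not those of a planned test, and 0 of all rows were called for it. In the vehicle group, replicates 1 and 3 are also the libraries with Xist, and replicates 2 and 4 those with Y-linked RNA. Set and makeup cannot be told apart there. Over the 8 libraries Gabrd and Gabra5 ran against each other, with Pearson's r of -0.841. Gabra3 ran with Gabra5 at 0.851 and against Gabrd at -0.774, as descriptions.

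**Figure D2:**
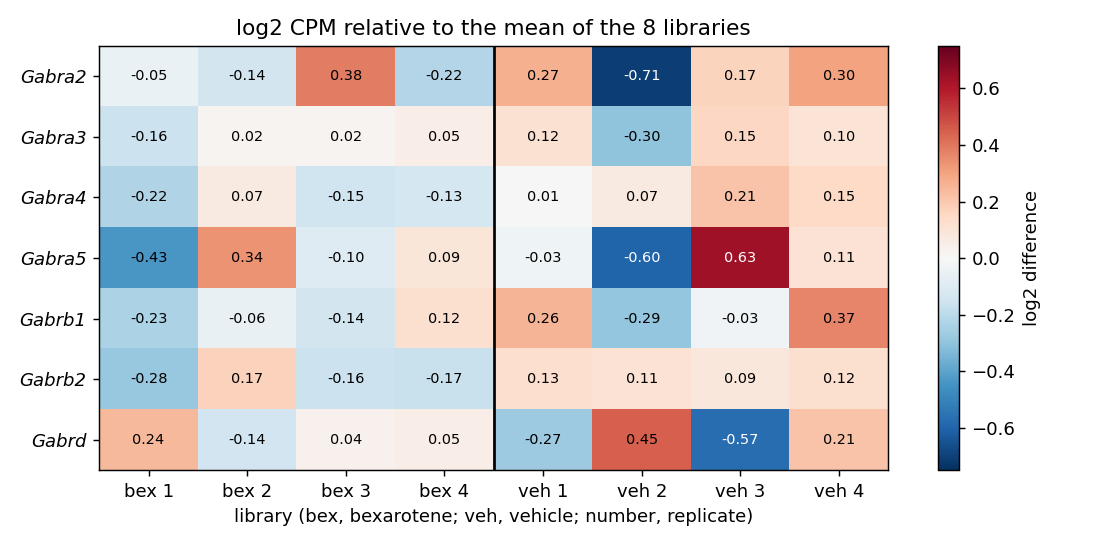
Log2 CPM of each subunit gene (rows) in each library (columns, bexarotene left and vehicle right of the line) relative to the gene's mean over the 8 libraries, with blue below and red above that mean. Vehicle replicate 2 is at -0.71 for Gabra2 and -0.60 for Gabra5 and at 0.45 for Gabrd, and Gabra4 and Gabrb2 are below their means in bexarotene replicates 1, 3 and 4.

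Vehicle replicate 2 stood apart for several members. Of the 8 libraries it was the lowest for Gabra2, Gabra3, Gabra5 and Gabrb1 and the highest for Gabrd. Without it the log2 fold change was -0.23 for Gabra2, -0.13 for Gabra3, -0.26 for Gabra5, -0.27 for Gabrb1 and 0.23 for Gabrd. Gabra4 at -0.23 and Gabrb2 at -0.21 differed little from their values with all 8 libraries. None of the 7 had an adjusted p below 0.05 in edgeR's quasi-likelihood test without it, and the lowest was 0.443, for Gabra4.

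**Figure D3:**
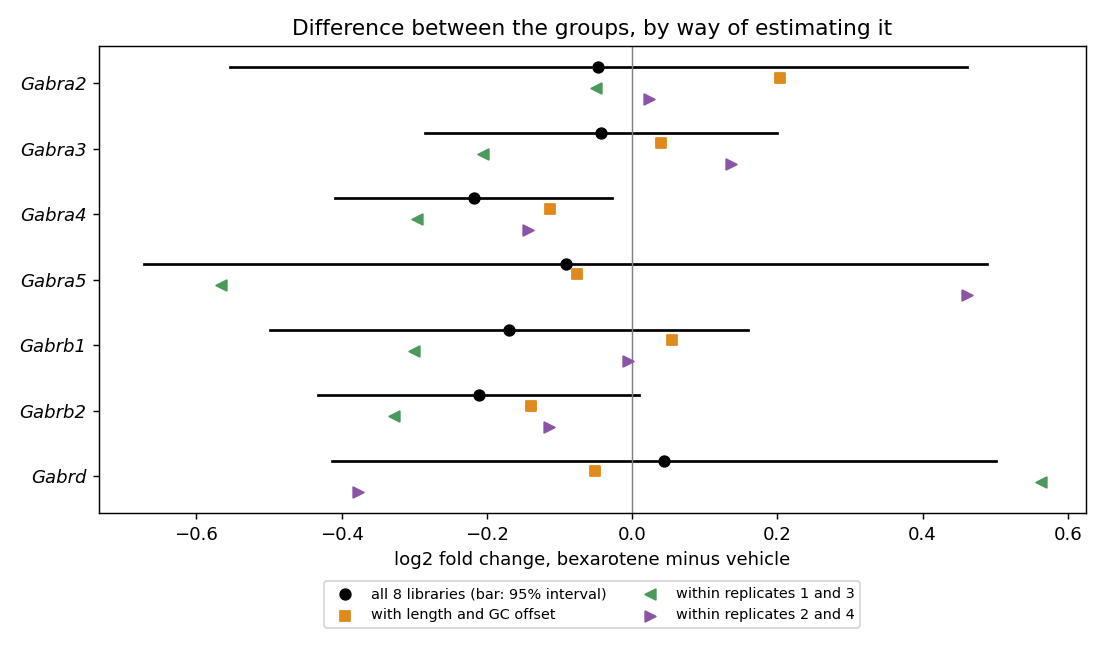
Log2 fold change, bexarotene minus vehicle (x axis), of each subunit gene with all 8 libraries (black, bar for the 95% interval), with an offset for transcript length and GC content (orange), within replicates 1 and 3 (green) and within replicates 2 and 4 (purple). Only the interval of Gabra4 stays below 0, from -0.41 to -0.027, and the within-set values of Gabra2, Gabra3, Gabra5 and Gabrd lie on opposite sides of 0.

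Levels of different genes were compared per length. Per kilobase of transcript, Gabrb2 was highest at 42.6 ± 6.05 CPM per kb with bexarotene and 49.3 ± 0.589 with vehicle, and Gabrb1 was lowest at 1.24 ± 0.132 with bexarotene and 1.39 ± 0.277 with vehicle (SD, n = 4 each). Between them came Gabra3 with 33.6 ± 2.21 CPM per kb with bexarotene and 34.7 ± 4.78 with vehicle, and Gabrd with 24.2 ± 2.67 with bexarotene and 23.5 ± 7.33 with vehicle. Next came Gabra4 with 16.8 ± 1.49 CPM per kb with bexarotene and 19.5 ± 1.25 with vehicle, and Gabra5 with 16.3 ± 3.59 with bexarotene and 17.4 ± 6.02 with vehicle. Gabra2 had 11.4 ± 2.28 CPM per kb with bexarotene and 11.8 ± 3.28 with vehicle. Gabra4 and Gabra5 did not differ beyond their SDs in either group, nor did Gabra5 and Gabra2. These SDs leave out that both genes of a pair were measured in the same libraries. In every library Gabra5 was above Gabra2. Their shares of the CPM per kb of the 4 alpha genes were 18.8% and 18.2% in bexarotene replicate 3. In vehicle replicate 3 they were 26.1% and 13.1%. The order of Gabra4 and Gabra5 changed between libraries. Gabra3 and Gabrd, and Gabrd and Gabra4, differed beyond their SDs in the bexarotene libraries but not in the vehicle libraries.

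The order depends on the length used. Matched transcripts ran from 1921 nt (Gabrd) to 13737 nt (Gabrb1), while the coding parts ran from 1350 to 1659 nt. Per kilobase of coding sequence Gabrb2 and Gabra3 stayed the 2 highest and Gabrb1 stayed the lowest. Gabra2 then had 49.1 ± 9.85 CPM per kb with bexarotene and 50.7 ± 14.2 with vehicle, and Gabra4 had 41.6 ± 3.69 with bexarotene and 48.3 ± 3.09 with vehicle. Gabrd had 34.4 ± 3.80 CPM per kb of coding sequence with bexarotene and 33.4 ± 10.4 with vehicle, and Gabra5 had 31.3 ± 6.88 with bexarotene and 33.3 ± 11.5 with vehicle (SD, n = 4 each). The order of Gabra2 and Gabra4, and that of Gabrd and Gabra5, lay within these SDs in both groups. Of the CPM per kb of transcript of the 4 alpha genes, Gabra3 made up 43.2 ± 1.70% with bexarotene and 41.8 ± 2.02% with vehicle, and Gabra4 made up 21.5 ± 1.15% with bexarotene and 23.9 ± 3.82% with vehicle. Both differences were smaller than the SD among vehicle libraries.

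**Figure D4:**
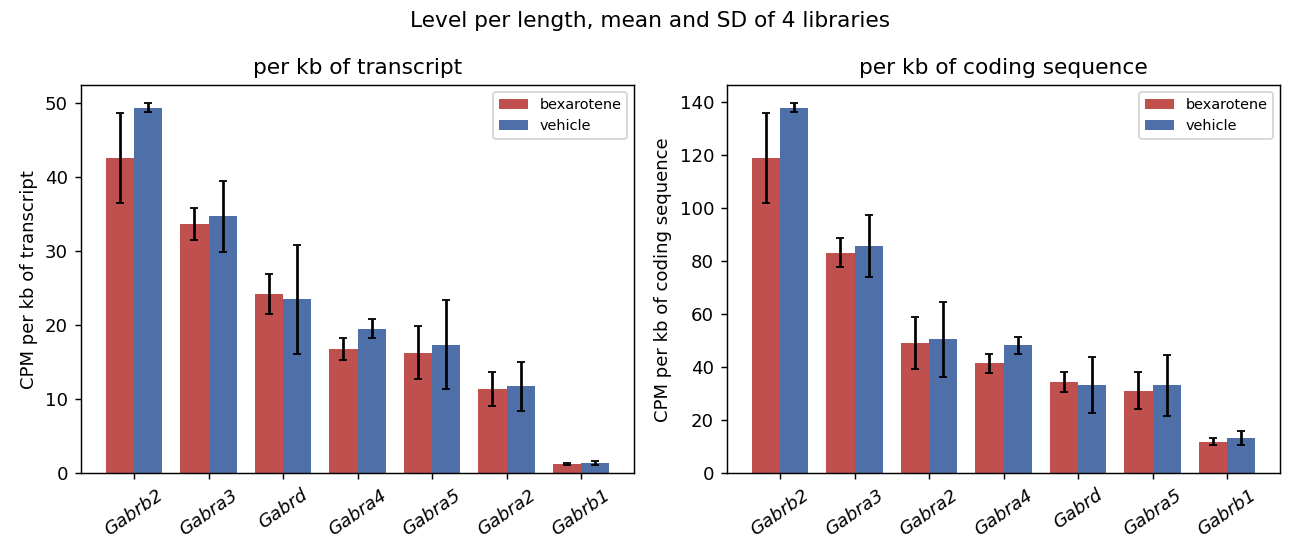
CPM per kb of transcript (one panel) and per kb of coding sequence (the other panel) of each subunit gene, with bexarotene bars left of vehicle bars and error bars for the SD of 4 libraries. Gabrb2 is the highest and Gabrb1 the lowest in both panels, and Gabra2 moves up when coding length is used.

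Transcript length ran with the difference between the groups across all genes. Over 11560 genes with a mean log2 CPM above 2, the median log2 fold change was 0.21 in transcripts under 1000 nt, 0.088 from 1000 to 2000 nt, -0.0022 from 2000 to 4000 nt, -0.067 from 4000 to 6000 nt and -0.13 above 6000 nt. Within replicates 1 and 3 these medians ran from 0.34 under 1000 nt to -0.22 above 6000 nt, and within replicates 2 and 4 from 0.097 to -0.047. Spearman's correlation of a library's deviation with transcript length was -0.42 and -0.43 in bexarotene replicates 1 and 3 and 0.027 in each of bexarotene replicates 2 and 4. In the vehicle libraries it ran between 0.071 and 0.31, as a description across genes. Gabrb2 at 3989 nt and Gabra4 at 4108 nt lay at -0.21 and -0.22, below the medians on either side of 4000 nt. With an offset for length and GC content in edgeR's quasi-likelihood fit, the log2 fold change was -0.11 for Gabra4, with an adjusted p of 0.919, and -0.14 for Gabrb2, with an adjusted p of 0.917. With that offset Gabra2 was at 0.20, Gabra3 at 0.039, Gabra5 at -0.075, Gabrb1 at 0.056 and Gabrd at -0.051, so that the sign turned in 4 of the 7.

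**Figure D5:**
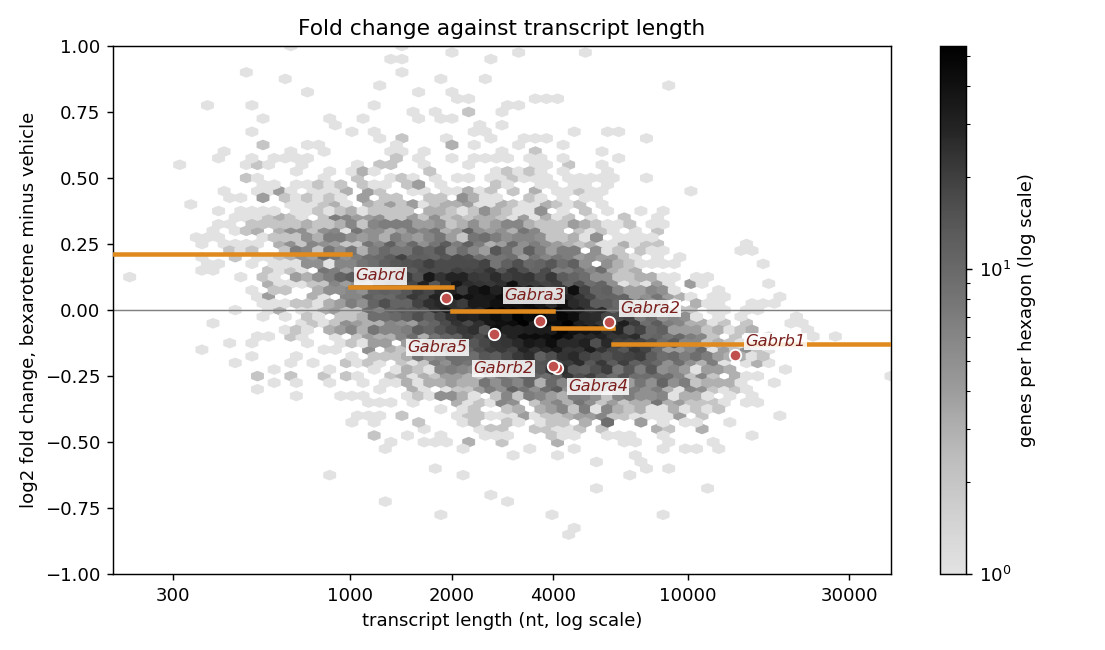
Log2 fold change, bexarotene minus vehicle (y axis), against transcript length in nt (log x axis) for 11560 genes, as hexagons shaded by the number of genes on a log scale, with medians of 5 length classes as orange lines and the subunit genes as red points. The medians run from 0.21 under 1000 nt to -0.13 above 6000 nt, Gabra4 and Gabrb2 lie below the medians of their classes, and 17 genes beyond 1 on the y axis are not drawn.

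The gene whose centred profile over the 8 libraries was nearest to that of a member, of 11171 genes with a mean of at least 5 CPM, differed for each. It was 2610101N10Rik for Gabra4, with a root mean square difference of 0.032, Tuba1a for Gabra3 with 0.043, and Efha2 for Gabrb2 with 0.046. It was AU022252 for Gabrb1 with 0.072, Epor for Gabrd with 0.085, Gm9962 for Gabra5 with 0.093 and Cdh9 for Gabra2 with 0.12. Gm9962 is the gene that overlaps Gabra5 on the other strand.

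The 57 tested genes of the other GABA lists also had 0 calls by the quasi-likelihood test of edgeR. DESeq2, limma voom and edgeR's exact test called 0 as well. DESeq2 gave no adjusted p, and so could make no call, for 3 of the 8 other GABA-A subunit genes. The same held for 1 of the 9 genes of GABA synthesis, transport and breakdown. At an unadjusted p below 0.05 the count was 1 of 6 GABA-B genes, 2 of 22 scaffold and trafficking genes and 0 in the other lists, against 8.77% of all genes tested. Of 12 other GABA-A subunit genes, 8 passed the low-count filter, 2 with a positive and 6 with a negative log2 fold change and a median of -0.23. One of them, Gabrg1, which encodes a gamma subunit and lies beside Gabra2 on chromosome 5, had 31.7, 21.4, 31.2 and 17.2 CPM with bexarotene and 30.7, 11.5, 24.1 and 30.8 CPM with vehicle. It was named after its values were seen, and like Gabra2 it was lowest in vehicle replicate 2. Of 6 genes of the slower, G protein-coupled GABA-B receptor, 2 were positive and 4 negative, with a median of -0.21. Kctd16, which encodes an auxiliary subunit of that receptor, had 6.03, 6.45, 6.05 and 7.08 CPM with bexarotene and 8.46, 8.80, 8.35 and 6.77 CPM with vehicle. Its log2 fold change was -0.34 ± 0.13 (adjusted p = 0.531, edgeR quasi-likelihood). Kctd12, another auxiliary subunit, was at -0.32 ± 0.22, and the receptor subunit Gabbr2 at -0.15 ± 0.13.

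Among 22 scaffold and trafficking genes of the inhibitory synapse, 6 were positive and 16 negative, with a median log2 fold change of -0.050. Gabarapl1, a relative of the GABA-A receptor-associated protein that also serves autophagy, had 458, 459, 468 and 447 CPM with bexarotene, against 384, 389, 416 and 385 CPM with vehicle. Every bexarotene value exceeded every vehicle value, as in 3.61% of all genes tested, and it was the 1 gene of these 22 to do so. Its log2 fold change of 0.22 ± 0.066 gave adjusted p = 0.445 by the quasi-likelihood test of edgeR, and the exact permutation p was 0.0286, the smallest possible. Gabarap itself was at 0.17 ± 0.084. Shisa7, which encodes an auxiliary protein that binds GABA-A receptors, had 118, 117, 126 and 136 CPM with bexarotene, against 152, 133, 172 and 142 CPM with vehicle. Bexarotene replicates 1 to 3 lay below every vehicle library, and the log2 fold change was -0.27 ± 0.097 (adjusted p = 0.509, edgeR quasi-likelihood). In the length trend above, Gabarapl1 at 1820 nt and Gabarap at 1351 nt fall in the class with a median of 0.088. Shisa7 at 6006 nt falls in the class with a median of -0.13. Whether length has a part in these differences was not tested.

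Of 9 genes for making, moving and breaking down GABA, 5 were positive and 4 negative, with a median log2 fold change of 0.024. Gad1, which makes GABA, was at -0.19 ± 0.16, and Aldh5a1, which oxidises succinic semialdehyde in GABA breakdown, at -0.15 ± 0.072. The chloride transporters that set the direction of the GABA current were at -0.14 ± 0.18 (Slc12a2) and -0.11 ± 0.079 (Slc12a5). Of 10 cortical interneuron markers 3 were positive and 7 negative, with a median of -0.094, and the 3 with the smallest p were Kcnc2 at -0.34 ± 0.18, Sst at 0.20 ± 0.16 and Vip at -0.28 ± 0.28.

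Markers of neurons and of neighbouring tissue moved between libraries as well. The summed CPM of 8 pan-neuronal markers was 4267, 5648, 4638 and 5545 in the bexarotene libraries (replicates 1 to 4) against 4868, 5493, 5347 and 5552 in the vehicle libraries. It was lowest in bexarotene replicates 1 and 3, and bexarotene replicate 1 was also the lowest library for Gabrb2 and Gabra4. Most of that sum comes from 2 synaptic genes, Snap25 at 1395, 2134, 1549 and 2157 CPM and Syt1 at 754, 1278, 864 and 1171 CPM in the bexarotene libraries. Tubb3, at 232 to 243 CPM, and Eno2, at 639 to 680 CPM, varied little among them. Summed CPM of 11 striatum markers was 1260, 276, 922 and 279 in the bexarotene libraries against 661, 219, 326 and 319 in the vehicle libraries, high in bexarotene replicates 1 and 3, and none of these 11 was at 0 in a library. Of the 12 striatum genes listed, Isl1 did not pass the low-count filter and is not in the sum. It had 305, 6, 238 and 7 counts in the bexarotene libraries and 74, 0, 5 and 4 in the vehicle libraries. A covariate was made from each list as the mean log2 CPM of its tested genes, not from these sums. With it, the log2 fold change of Gabra4 was -0.18 with the neuronal list and -0.17 with the striatum list. That of Gabrb2 was -0.17 with the neuronal list and -0.16 with the striatum list. For Gabra2, at -0.047 without a covariate, it was -0.10 with the neuronal list and -0.18 with the striatum list. For Gabra5, at -0.092 without a covariate, it was 0.019 and -0.026 in the same order. The values in that order were -0.015 and -0.049 for Gabra3, -0.13 and -0.17 for Gabrb1, and 0.0039 and 0.067 for Gabrd. The part of the tissue sampled in these differences was not tested beyond that. Cortical excitatory markers summed to 4058 to 5686 CPM with bexarotene and 4009 to 5542 CPM with vehicle, and none of the 10 was at 0 in a library. Median log2 fold changes of the marker lists were -0.0097 for pan-neuronal, -0.18 for excitatory, 0.83 for striatum, 0.054 for thalamus, 0.099 for hippocampus, 0.047 for astrocytes, 0.33 for microglia, 0.14 for oligodendrocytes and 0.25 for endothelium. Within replicates 1 and 3 the medians were -0.050 for pan-neuronal, -0.25 for excitatory, 1.22 for striatum, 0.43 for thalamus, 0.42 for hippocampus, 0.21 for astrocytes, 0.35 for microglia, 0.36 for oligodendrocytes and 0.53 for endothelium. Within replicates 2 and 4 they were 0.043 for pan-neuronal, -0.13 for excitatory, 0.014 for striatum, -0.23 for thalamus, 0.19 for hippocampus, -0.075 for astrocytes, 0.40 for microglia, 0.030 for oligodendrocytes and -0.057 for endothelium.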

How the data were processed

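Per the labels, cortical RNA (Qiagen RNeasy) was made into stranded TruSeq mRNA libraries. The deposited table holds raw counts, 1 row per RefSeq transcript and 28644 rows. The submitters' processing notes name mm9 and edgeR. No source used here names the aligner, the counter, its strand setting or the annotation release. All value columns were used.

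Where a symbol had several rows, the one with most counts stood for the gene. The 8 libraries were grouped by title, 4 per group. Groups were compared with glmQLFTest, the quasi-likelihood test of edgeR (4.0.16, in R 4.3.3), after filterByExpr and TMM scaling, with robust dispersions and no covariate, adjusted by Benjamini-Hochberg over 21285 rows. An adjusted p below 0.05 was called, and the script was tested on simulated data. Single genes were also tested by an exact two-sided permutation test of log2 CPM (prior count 2). Intervals are from edgeR's estimate and SE. Transcript lengths came from the matched RefSeq accession (27791 rows) or the symbol (589 rows) in a GENCODE annotation of another build, and 264 rows had none. Promoter windows came from RefSeq.

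The members, lists and tests were chosen with earlier results of these data known. All 151 list entries were matched. The rule named the members, the 3 smallest p of each GABA list, the extremes of each marker list and the 2 nearest profiles per member, of which the nearest is printed. Marker lists are given by sums and medians. Of the genes it took from the GABA lists, 4 are not reported here. For libraries of the same number, deviations from the group mean correlated at 0.496, 0.299, 0.245 and 0.323 for replicates 1 to 4, all over the 0.1 at which a blocked fit is set beside the unpaired main one. The numbers come from the titles alone. Correlations of 0.560 (bexarotene replicate 3, vehicle replicate 1) and 0.381 (bexarotene replicate 4, vehicle replicate 2) were above their own numbers, so the check cannot tell pairs from the sets 1 and 3 against 2 and 4. Alternatives covered normalization, filters, DESeq2 (1.42.0), limma voom (limma 3.58.1), the replicate block, covariates, a length and GC offset and leaving out each library. The interaction term and the coding length were added after seeing the data.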

Additional observations from a re-analysis of the deposited data

Results flagged for a closer look

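Gabra3 had a library far from the others in both groups. Bexarotene replicate 1, at 111 CPM, lay below the other bexarotene libraries at 126 to 129 CPM. Vehicle replicate 2, at 101 CPM, lay below the other vehicle libraries at 134 to 138 CPM. In both, the gap to the nearest library exceeded Dixon's 95% critical share of the group's range for 4 samples. The measure marks about 1 in 20 groups by chance, and 14 groups (7 genes, both treatments) were examined.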

How the results depend on the processing

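The count of subunit genes past the threshold was 0 under all 23 alternatives that gave a test. Over all rows the count was 1, and it was 126 with DESeq2, 40 with edgeR's exact test and 3 with a term for the library clusters. Leaving out 1 library at a time gave 1 to 2, with 2 without bexarotene replicate 2. Gabra4 (log2 fold change from -0.28 to -0.11) and Gabrb2 (from -0.31 to -0.14) kept their sign under all 23, with lowest adjusted p-values of 0.308 and 0.309. The replicate block gave -0.22 for Gabra4 and -0.22 for Gabrb2, and changed no call. Signs turned with the length and GC offset, to 0.20 for Gabra2, 0.039 for Gabra3, 0.056 for Gabrb1 and -0.051 for Gabrd, and with that offset and the replicate block together, to 0.22 for Gabra2, 0.045 for Gabra3, 0.059 for Gabrb1 and -0.0074 for Gabrd. With the pan-neuronal list as a covariate Gabra5 was at 0.019. The cause was not tested.

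Leaving out 1 library at a time gave -0.23 to 0.050 for Gabra2, -0.13 to 0.0035 for Gabra3, -0.28 to -0.18 for Gabra4, -0.26 to 0.15 for Gabra5, -0.27 to -0.061 for Gabrb1, -0.31 to -0.15 for Gabrb2 and -0.11 to 0.23 for Gabrd. The members had 848 or more counts in each library. Within replicates 1 and 3 the values were -0.33 for Gabrb2 and 0.56 for Gabrd, and within replicates 2 and 4 they were -0.11 for Gabrb2 and 0.46 for Gabra5. Per kb of coding length, over all 8 libraries, levels were 49.9 for Gabra2, 84.5 for Gabra3, 45.0 for Gabra4, 32.3 for Gabra5, 12.7 for Gabrb1, 129 for Gabrb2 and 33.9 CPM for Gabrd.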
